A study of Mus musculus with 5 samples.

Results

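Kidney miRNAs were compared between 12 h and 24 h of reperfusion after renal ischemia reperfusion injury (IRI). Both groups were male C57B/6 mice whose kidneys underwent bilateral warm ischemia for 30 min, and the groups differed in the time from reperfusion to sacrifice, 12 h or 24 h. The labels give 8 mice per time point, and the sources used here do not state how their RNA was combined. Each group had 1 array, so 2 of the 5 arrays of the series (sham and 6, 12, 24, and 48 h after IRI) form this comparison, and the other 3 serve as context. Sham mice were operated on with no clamp applied. Total RNA from 20 mg of kidney tissue was labelled with Cy3 and hybridized to Agilent mouse miRNA arrays. The 12 h and 24 h arrays were on 1 slide and came from 1 scan, and the software gave them nearly equal effective feature sizes, 0.774 and 0.776. The other 3 arrays came from other scans and had an effective feature size of 0.6, so their signals are given as raw values for context, and a difference from the pair cannot be told apart from one of scan and feature size.

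A miRNA's signal was the sum over its own detected probes, and a probe counted as detected above 3 times its scanner error. Of the 1247 miRNAs on the array, 279 were detected at 12 h and 298 at 24 h, 258 of them on both arrays. A further 40 were detected at 24 h and not at 12 h, 21 at 12 h and not at 24 h, and 928 on neither array. All 1247 were members of the comparison. Errors come from the scanner software and describe the spots within an array, not the variation between mice or between arrays, so no test was made and no p-value is given. In whole tissue, fewer cells of a type and less of a miRNA per cell cannot be told apart.

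A miRNA is a short RNA that guides a silencing complex to messenger RNAs, mainly through its seed, the bases near its 5′ end that pair with the target. Each hairpin precursor can give a product from either arm, named 5p and 3p, and miRNAs with the same seed are grouped as a family because they can bind the same sites. In the injured kidney, miR-21 is known as a miRNA induced in damaged tubules, let-7 miRNAs are abundant in differentiated cells, miR-451a is made in the red cell lineage, and miR-223 is carried by neutrophils and other myeloid cells.

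The miRNAs on which the comparison turned are shown with their mature sequences from RefSeq (GRCm38.p6), the seed (bases 2 to 8) in capitals. The first group had higher ratios at 24 h and includes 3 let-7 members, with the highest (let-7e-5p) and the lowest (let-7b-5p) ratio of that family, and the pair miR-204 and miR-211.
miR-21a-5p: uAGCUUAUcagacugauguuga
let-7e-5p: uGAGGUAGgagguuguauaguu
let-7a-5p: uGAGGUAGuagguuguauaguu
let-7b-5p: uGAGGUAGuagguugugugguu
miR-451a: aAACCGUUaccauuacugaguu
miR-342-3p: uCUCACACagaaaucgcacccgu
miR-204-5p: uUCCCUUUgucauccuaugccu
miR-211-5p: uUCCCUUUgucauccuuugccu
The second group was lower at 24 h. It includes the neutrophil miRNA and miRNAs made largely of alternating letters.
miR-223-3p: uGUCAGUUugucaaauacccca
miR-3082-5p: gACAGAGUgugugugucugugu
miR-574-5p: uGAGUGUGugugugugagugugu
miR-1187: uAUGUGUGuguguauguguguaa
miR-467f: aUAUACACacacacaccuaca

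The gene of miR-21a lies on chromosome 11, its 5p product at chr11:86584120-86584141 on the minus strand within the span of Vmp1. The let-7e product lies at chr17:17830366-17830387 on the plus strand within Spaca6, beside miR-99b and miR-125a. That of miR-451a is at chr11:78073186-78073207 on the plus strand, within no annotated host gene of the table used. The products of miR-342-3p (chr12:108658680-108658702) and miR-204-5p (chr19:22750610-22750631) lie on the plus strand within Evl and Trpm3, and that of miR-574-5p (chr5:64970328-64970350) on the plus strand within both Fam114a1 and Tlr6. These are whole gene spans, and exons and introns were not resolved.

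The array of kidney RNA carried miRNAs of kidney tubules at both times. Of the 6 tubule miRNAs listed, 5 were detected on both arrays, among them miR-192-5p, miR-10a-5p, and miR-204-5p, and miR-215-5p was on neither. None of 6 miRNAs of liver, skeletal muscle, and neurons (miR-122-5p, miR-1a-3p, miR-133a-3p, miR-206-3p, miR-124-3p, miR-9-5p) was detected on either array.

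The summed signal of all miRNAs was 124640 ± 2902 (scanner error) at 12 h and 137161 ± 3121 at 24 h, a log2 ratio of 0.14 ± 0.047. The typical miRNA differed by more than this total. Over the 258 miRNAs with a ratio, the median was 0.40 on the log2 scale without scaling, or 1.32-fold, and 189 of them (73.3%) had a higher signal at 24 h. By more than 2 scanner errors, 108 were higher and 40 lower at 24 h, and 110 lay within 2 errors. The choice of scale decides how these numbers are read. The 4 spike-ins had a mean log2 ratio of 0.036 (−0.10 to 0.21 singly), while 5 other positive controls, whose targets are not named in the files, had 0.56 (0.27 to 0.81). All 9 together had 0.32, and after division by their geometric mean the median log2 ratio of the miRNAs was 0.079 and the total was lower at 24 h, with a log2 ratio of −0.19. Ratios of single miRNAs are therefore given both as measured, called unscaled, and after subtraction of the median of 0.40, called centred.

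After centring, 22 miRNAs (8.53% of the 258) were at least 1.5-fold above the median and 52 (20.2%) at least 1.5-fold below it. Without scaling the numbers were 85 higher (32.9%) and 34 lower (13.2%). The spread had a long lower tail, with the quartiles at −0.45 and 0.30, the 5th and 95th percentiles at −1.89 and 0.80, and the extremes at −4.25 and 2.36 on the centred log2 scale. Of all 258, 70.5% had their highest signal of the 5 arrays at 24 h and 67 miRNAs at 12 h. Among those chosen by a low ratio, 51 of 52 were highest at 12 h, and among those chosen by a high one, 22 of 22 at 24 h, which the choice partly fixes. The ratios depended in part on detection. At 24 h, 22 of the 258 miRNAs had more probes detected than at 12 h and 21 had fewer. Of the 22 high miRNAs, 13 had more probes detected at 24 h and 16 had a 12 h signal under 30. With only the probes detected on both arrays, 18 were 1.5-fold above the median and 51 below it.

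**Figure D1:**
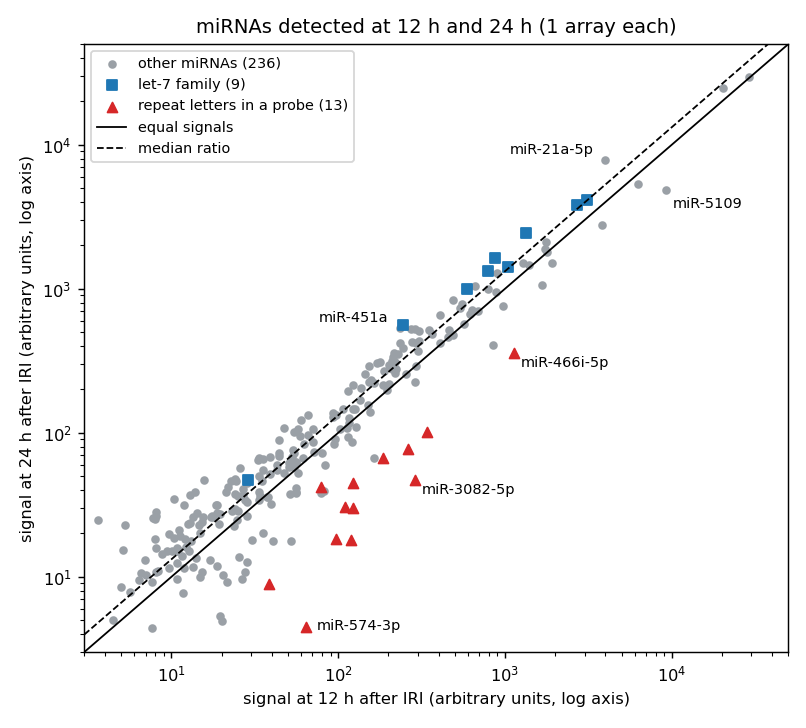
Signals of the 258 miRNAs detected on both arrays, at 12 h (horizontal) and 24 h (vertical) after IRI, in arbitrary units on log axes, 1 point a miRNA. The solid line marks equal signals and the dashed line the median ratio of 1.32; the let-7 points (blue) lie on or above the dashed line, and the 13 miRNAs with repeat letters in a probe (red, let-7b-5p not among them) all lie below the solid line.

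A large share of the gain in summed signal came from few miRNAs. Over the 229 miRNAs with more signal at 24 h the differences summed to 23779, and over the 90 with less signal to −11258. The gain of miR-3963, from 20249 to 24713, and that of miR-21a-5p, from 3976 to 7885, together made up 35.2% of all gains. The ratio of miR-3963 was within 2 scanner errors of equal, 0.29 ± 0.16 unscaled, and its centred ratio was −0.12. Next came let-7a-5p (1342 to 2447), let-7c-5p (2713 to 3793), and let-7b-5p (3112 to 4149). The largest loss was that of miR-5109, from 9244 to 4809, which made up 39.4% of all losses. The losses of miR-6243 (3825 to 2747), miR-3473b (6300 to 5345), miR-466i-5p (1135 to 356), and miR-3960 (1672 to 1056) followed. The brightest signals, miR-6366 and miR-3963, held 39.7% of the sum at 12 h and 39.5% at 24 h, and miR-6366 itself was nearly level, at 29200 and 29506. The 10 highest miRNAs held 66.0% and 63.8%, and 8 of them were the same at both times. A signal depends on the binding of each probe, so this order is one of brightness and not of copy number.

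miR-21a-5p, which is induced in injured tubules, was measured at 3976 ± 345 at 12 h and 7885 ± 680 at 24 h. The 24 h signal was 1.98-fold that at 12 h, with an unscaled log2 ratio of 0.99 ± 0.18 and a centred one of 0.58. On the other arrays its signal was 831 in sham, 1577 at 6 h, and 4898 at 48 h, so 24 h was the highest of the 5. The other product of the same hairpin, miR-21a-3p, did not follow. It was at 28.2 and 26.6, an unscaled log2 ratio of −0.085 ± 0.20. Among the p53-linked miR-34 miRNAs, miR-34a-5p was 171 at 12 h and 303 at 24 h (centred 0.42 ± 0.18), and miR-34b-5p was near the detection level with 7.02 and 10.3. The hypoxia-induced miR-210-3p was 10.8 and 15.1, and its unscaled log2 ratio of 0.49 ± 0.43 was within 2 errors of 0. Of the 12 injury and hypoxia miRNAs, 8 were detected on both arrays, 7 of them higher at 24 h without scaling, beside 189 of all 258. After scaling by the 75th percentile 4 of the 8 were higher, beside 102 of 258. The list's median centred ratio was 0.12 beside 0 over all 258, and after scaling by the 75th percentile it was −0.0061 beside −0.12. 1 of the 8, miR-18a-5p, was 1.5-fold above the median, and miR-21a-5p fell just short of it. miR-34c-5p, miR-34c-3p, and miR-687 were detected on neither array, and miR-34b-3p at 24 h alone.

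The let-7 family was higher at 24 h in every member without scaling. Its 8 let-7 members and miR-98-5p share the seed gagguag and are known as brakes on growth-promoting genes. All 9 had a higher signal at 24 h by more than 2 scanner errors, beside 108 of all 258, of which 189 were higher by any amount. All 9 centred ratios were above 0, beside 129 of all 258. They ran from 0.01 for let-7b-5p to 0.80 for let-7e-5p with a median of 0.33. After scaling by the 75th percentile, 6 of the 9 were higher, beside 102 of all 258, and let-7b-5p, let-7c-5p, and let-7g-5p were not. let-7e-5p was 244 ± 21.0 at 12 h and 563 ± 47.6 at 24 h, the highest ratio among miRNAs with a scanner error of at most 0.25, and was 355, 266, and 275 in sham and at 6 and 48 h. let-7a-5p and let-7f-5p were intermediate, with centred ratios of 0.46 and 0.51. The members are nearly alike in sequence and their probes may bind one another's targets, which these values cannot separate. Of 10 let-7 3p arms on the array, 5 were detected at 24 h, beside 298 of all 1247 miRNAs. Of these, 3 (let-7a-2-3p, let-7e-3p, and let-7g-3p) were detected on no other array, as were 36 of all 40 miRNAs gained at 24 h. Signals of the 3 were weak, 4.4 to 9.9, where the lowest detected at 24 h was 4.35. let-7b-3p and let-7d-3p were detected at 12 h and 24 h alone. let-7d-3p was 11.9 and 31.3. The centred ratio of let-7b-3p, 2.36, was the highest of all, but it compared 1 probe at 12 h (3.64) with 4 at 24 h (24.6), and over the probe detected on both arrays it was 0.62.

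miR-451a was 234 ± 17.4 at 12 h and 538 ± 39.7 at 24 h, a centred log2 ratio of 0.80 ± 0.15. On the other arrays it was 159 in sham, 500 at 6 h, and 105 at 48 h, as raw signals. Of the 6 red blood cell miRNAs on the array, miR-16-5p (243 and 385) and miR-15b-5p (153 and 290), which many other cells also make, were detected as well, and both were higher at 24 h. The 3 had centred ratios of 0.26 to 0.80. All 3 were higher without scaling and after scaling by the 75th percentile, beside 189 and 102 of all 258. miR-144-3p, miR-144-5p, and miR-486-3p were detected at neither time. The part of blood in the kidney samples was not tested.

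The leukocyte list moved in different directions. The neutrophil and macrophage miRNA miR-223-3p was 82.7 ± 7.63 at 12 h and 39.5 ± 4.83 at 24 h, a centred log2 ratio of −1.47 ± 0.22, and its 12 h signal was the highest of the 5 arrays (24.8 in sham, 55.7 at 6 h, 41.7 at 48 h). It lost 1 of its 2 probes at 24 h, and over the remaining probe the centred ratio was −1.21. miR-342-3p, a miRNA of lymphocytes and other cells, was 44.4 ± 4.44 and 89.5 ± 7.82, a centred ratio of 0.61 ± 0.19 (0.33 with normexp background correction), and its 12 h signal was below that of sham (59.2) and of 6 h (69.3). Both differences exceeded 2 scanner errors, in opposite directions. miR-155-5p, linked to inflammatory activation, was 10.3 and 18.7, beyond 2 scanner errors without scaling (0.86 ± 0.41) and within them after centring (0.45). miR-146a-5p, linked to the same response, was 10.74 and 12.5, centred −0.18 ± 0.47. miR-142-3p, found in most blood cells, was detected at 12 h (6.83) and not at 24 h, close to the detection level. miR-142-5p, miR-150-5p, miR-146b-5p, miR-147-3p, and miR-223-5p were detected at neither time.

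**Figure D2:**
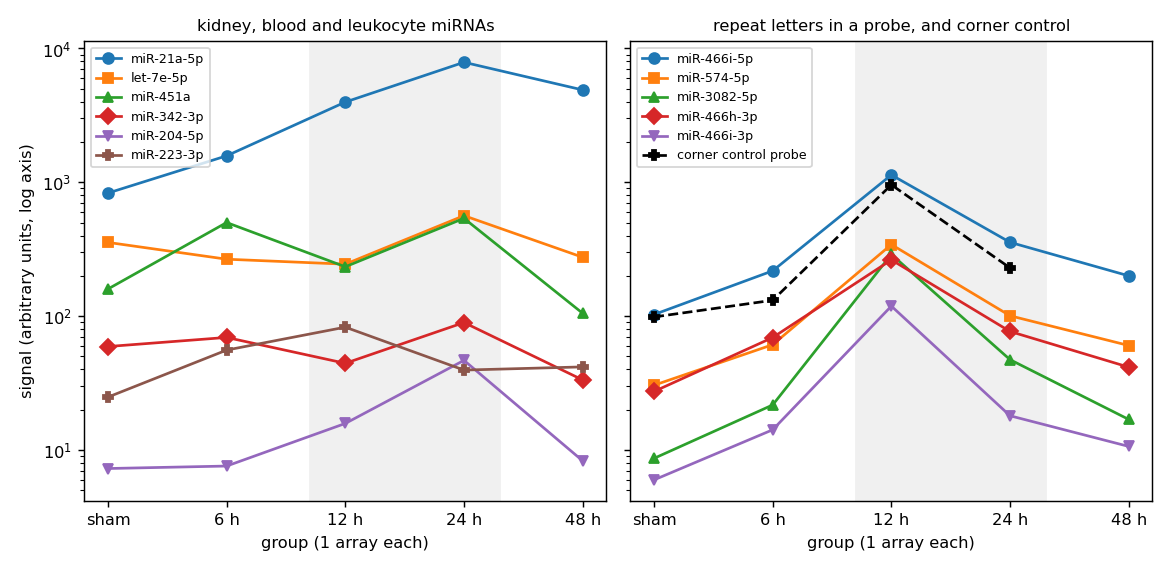
Signals on the 5 arrays (arbitrary units on a log axis, 1 array a group, the compared pair shaded) of 6 miRNAs of kidney, blood, and leukocytes (left) and of 5 miRNAs with repeat letters in a probe and the corner control probe (right). miR-21a-5p, let-7e-5p, miR-342-3p, and miR-451a were highest at 24 h on the left, miR-223-3p at 12 h, and every line on the right was highest at 12 h; the corner control was not detected at 48 h.

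Tubule miRNAs did not move as one group. miR-192-5p (884 and 949) and miR-194-5p (255 and 254), which are enriched in proximal tubules and come from shared clusters, were level without scaling and below the median after centring, at −0.30 and −0.41. miR-10a-5p (488 and 829) and miR-10b-5p (305 and 508) were above it, at 0.36 and 0.33. miR-204-5p, a miRNA of renal epithelium, was 15.8 ± 2.56 at 12 h and 46.7 ± 5.32 at 24 h, against 7.26 in sham, 7.58 at 6 h, and 8.29 at 48 h. Its centred ratio was 1.16 ± 0.29 with 1 probe detected at 12 h and 2 at 24 h, and 0.69 over the probe common to both. The near-identical miR-211-5p was 12.9 and 36.8 (centred 1.11 ± 0.25, or 0.85 over the 3 probes detected on both arrays), and their probes may share signal. Over the 5 tubule miRNAs 1 was 1.5-fold above the median and 0 below, beside 8.53% and 20.2% of all 258. Of the 5, 4 were higher at 24 h without scaling and 3 after scaling by the 75th percentile, beside 189 and 102 of all 258.

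The epithelial miR-200 family, which keeps cells in an epithelial state by repressing Zeb factors, was higher at 24 h in all 7 members detected without scaling, from 0.29 to 0.84 on the log2 scale. Centred, the members lay between −0.12 and 0.43 and none was 1.5-fold from the median. miR-200b-3p was 552 and 781, and miR-200c-3p, from another locus, was 143.9 and 257. After scaling by the 75th percentile 3 of 7 were higher, beside 102 of all 258, and after quantile normalization 4 of 7, beside 154 of 258, so the family moved with the whole array. The miR-30 family, abundant in tubules and podocytes, had a median just below that of all miRNAs. Its 5p members were within 2 scanner errors of equal, with miR-30a-5p at 1763 and 2126, miR-30c-5p at 1276 and 1509, and miR-30e-5p at 464 and 514, so that the 9 members detected had a median of 0.27 unscaled and −0.13 centred. miR-30c-1-3p, at 11.8 and 7.77, was the 1 member 1.5-fold below the median, and with normexp background correction it was at −0.38. The 3p members were less alike, with miR-30e-3p at 24.3 and 46.4 (centred 0.53 ± 0.25, or 0.22 over the common probe), miR-30c-2-3p at 0.22, and miR-30a-3p at 0.07. Of the 9, 8 were higher at 24 h without scaling, 5 after quantile normalization, and 2 after scaling by the 75th percentile, beside 189, 154, and 102 of all 258.

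In the stroma and fibrosis list the miR-29 family, known to repress collagens, was level without scaling and below the median after centring. miR-29a-3p was 1745 and 1887, miR-29b-3p 293 and 293, and miR-29c-3p 616 and 669, and the centred ratios were −0.29, −0.40, and −0.29. The fibroblast and smooth muscle miRNAs differed among themselves, with miR-199a-3p at 114 and 193.6, miR-199b-5p at 32.9 and 64.97 (1 and 2 probes), and miR-143-3p at 57.5 and 106.1, centred 0.36, 0.58 (0.34 over the common probe), and 0.48. miR-145a-5p, from the same transcript as miR-143, was 33.3 and 38.8, centred −0.18 ± 0.24. miR-214-3p from the same transcript as miR-199a was 12.8 and 15.1, within 2 scanner errors. None of the 9 stromal miRNAs was 1.5-fold above or below the median. Of the 9, 8 were higher at 24 h without scaling and 4 after scaling by the 75th percentile, beside 189 and 102 of all 258. Their median was −0.16 centred, beside 0 over all 258, and 0.26 after quantile normalization, beside 0.14. The endothelial miR-126-3p was 898 and 1284, a centred ratio of 0.11, and miR-126-5p was detected at neither time.

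The proliferation-linked miR-17 cluster and its paralogs were higher at 24 h in all 8 members detected on both arrays without scaling. Each was higher by more than 2 scanner errors, beside 189 of all 258 higher and 108 by more than 2 errors. After scaling by the 75th percentile 7 of 8 were higher, beside 102 of 258. miR-20a-5p was 235 and 419, miR-19b-3p 213 and 338, and miR-92a-3p 200 and 295, while centred ratios of the 8 had a median of 0.16. miR-18a-5p was the 1 member past 1.5-fold. It was 8.08 ± 2.18 at 12 h and 26.6 ± 3.84 at 24 h by 1 probe, a centred ratio of 1.31 ± 0.44. It was 0.39 with normexp background correction and 0.38 with the software's own totals, both short of 1.5-fold. Other products of these hairpins, miR-17-3p (11.5), miR-18a-3p (11.5), and miR-18b-3p (9.3) were detected at 24 h and not at 12 h.

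Of 32 miRNAs of further families listed for the kidney, 29 were detected on both arrays. All 29 had a higher signal at 24 h without scaling, 20 of them by more than 2 scanner errors, beside 189 and 108 of all 258. After scaling by the 75th percentile 16 of 29 were higher, beside 102 of 258, and after scaling by the spike-ins 26, beside 70.5% of the 258. Their median was 0.15 centred. miR-100-5p was the only one past 1.5-fold, at 25.6 and 57.1, with 1 probe at 12 h and 2 at 24 h and a centred ratio of 0.45 over the common probe. miR-22-3p (1772 and 1812), miR-107-3p (564 and 573), and miR-193a-3p (117 and 118) were the members nearest to equal signals. The closely related miR-103-3p (291 and 423) and miR-107-3p, which share a seed, differed in their centred ratios, 0.14 and −0.38.

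Beside these lists, the highest centred ratios with a scanner error of at most 0.25 were those of miR-3096b-3p (47.5 and 108, 0.78), miR-760-3p (59.7 and 123, 0.64), miR-3099-3p (66.0 and 132.7, 0.60), and miR-328-3p (33.7 and 66.4, 0.57). For miR-760-3p all 4 probes were detected on both arrays. With normexp background correction miR-3096b-3p, miR-760-3p, and miR-3099-3p were at 0.44, 0.41, and 0.41, short of 1.5-fold. The signals of miR-760-3p and miR-3099-3p were lower at 6 h (8.72 and 16.3) and at 48 h (11.6 and 14.9) than in sham (34.8 and 43.0). Both were highest at 24 h, with 12 h next. miR-328-3p was detected on the 12 h and 24 h arrays alone.

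**Figure D3:**
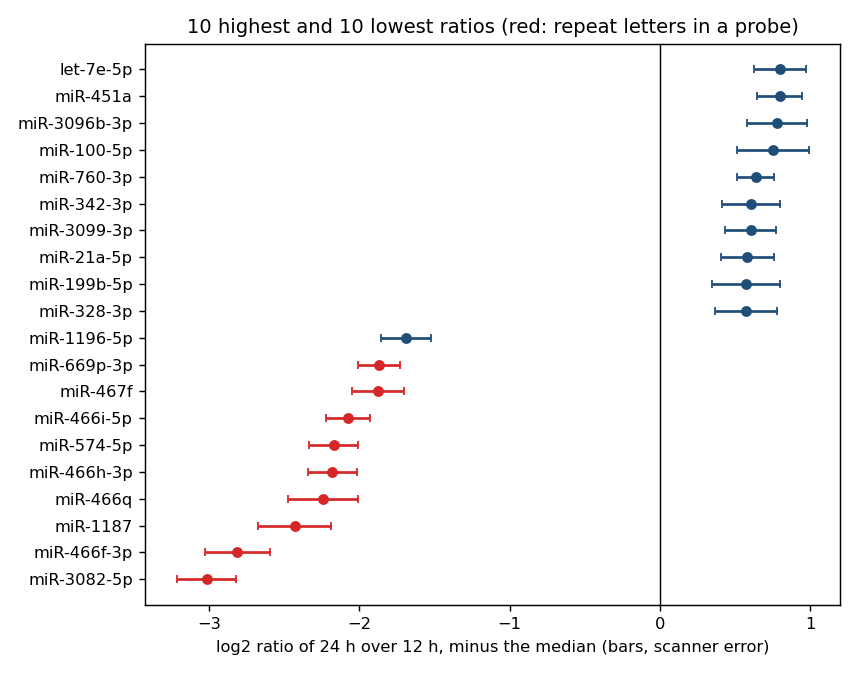
Centred log2 ratios of 24 h over 12 h for the 10 highest and 10 lowest of the 160 miRNAs with a scanner error of at most 0.25, with bars of 1 scanner error and red for miRNAs with repeat letters in a probe. The high end ends at 0.80 and the low end reaches −3.02, and 9 of the 10 lowest are red.

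The lowest ratios belonged almost entirely to miRNAs made of alternating letters. miR-3082-5p was 289 ± 22.1 at 12 h and 47.3 ± 5.38 at 24 h, 6.12-fold higher at 12 h, and was 8.65 in sham, 21.7 at 6 h, and 16.9 at 48 h. miR-574-5p was 343 ± 25.6 and 100.6 ± 8.56. miR-466i-5p was 1135 ± 80.9 and 356 ± 25.6. All 3 were highest at 12 h and at 24 h remained above sham. Of the 10 lowest ratios with a scanner error of at most 0.25, 9 had a probe holding at least 1 run of 6 alternating letters, any of CACACA or ACACAC or TGTGTG or GTGTGT, and miR-1196-5p (163 and 66.8, centred −1.69) had none. RefSeq mature sequences could not be matched by name for several of these, so the deposited probe sequences, which are DNA complementary to the miRNA, are shown for some members with the longest alternating run in capitals.
miR-466i-5p: CACACACACACACACA
miR-466h-3p: GTGTGTGTGTGcgt
miR-669p-3p: atacGTGTGTGTGTGTatg
miR-466g: TGTGTGTGcatgtgtc
miR-574-5p: acacactCACACACACAC
miR-3082-5p: acacagACACACACAC

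This group was defined after the ratios were seen, so its values are a description. Such letters occurred in a probe of 75 of the 1247 miRNAs on the array (6.01%). Of these, 14 were detected on both arrays, 6 at 12 h and not at 24 h, 1 at 24 h and not at 12 h, and 54 on neither. The 14 had a median centred ratio of −2.21, beside 0 over all 258, and 13 of the 14 were 1.5-fold below the median, against 20.2% of all. The exception was let-7b-5p (centred 0.01). The other 13 were 1.88-fold to 14.4-fold higher at 12 h, with a median of 3.58-fold. Together with the 6 detected at 12 h and not at 24 h, they summed to 3098 at 12 h and 844 at 24 h, against 264 in sham, 615 at 6 h, and 480 at 48 h. With let-7b-5p and miR-294-3p included, the sums were 6209 and 5009, or 4.98% and 3.65% of all miRNA signal, and let-7b-5p alone held 3112 and 4149 of them. All 19 were highest at 12 h among the 5 arrays, as were 67 of the 258, but the 19 are by definition those lower or undetected at 24 h. They made up 2.49% of all miRNA signal at 12 h and 0.616% at 24 h, and without all 75 the total's log2 ratio was 0.16 and 20 miRNAs were above and 42 below the new median by 1.5-fold. The lowest of all centred ratios was that of miR-574-3p, at 64.3 by 4 probes and 4.48 by 1 probe, which over the common probe was −2.45 in place of −4.25. A control probe printed at the array corners, whose sequence the files do not give, moved the same way. Its signal was 958 at 12 h and 229 at 24 h, against 98.5 in sham and 131 at 6 h, and it was not detected on the 48 h array. The part of probe binding or of the hybridization in the 12 h signals of the alternating-letter miRNAs was not tested.

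Other miRNAs with less signal at 24 h had no such letters in their probes. miR-5109 was 9244 ± 714 and 4809 ± 369, a centred log2 ratio of −1.35 ± 0.16, against 1569 in sham and 7114 at 6 h. miR-494-3p was 850 ± 64.5 and 406 ± 31.1, a centred ratio of −1.47, and stood at 101.1 in sham. Both were above sham on each array after IRI. miR-3960 (centred −1.07) and miR-6243 (−0.88) had the same order of arrays, lowest in sham and highest at 12 h. Many of these miRNAs carry high numbers, which go to miRNAs registered late and often on little evidence. Of the 258, 78 were numbered 1000 or above, and 28 of these 78 were 1.5-fold below the median and 6 above it, with a median of −0.39. The 75 of them free of repeat letters had 25 below and 6 above, with a median of −0.36. Among the 169 numbered below 1000 or called let-7 and free of repeat letters, 14 were 1.5-fold below and 16 above, and the median was 0.11.

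The base composition differed along the same line. Mature sequences were matched for 209 of the 258 miRNAs. The 36 with a GC content above 65% had a median centred ratio of −0.39, with 13 at least 1.5-fold below and 5 above. The 173 others had a median of 0.07, with 26 below and 14 above, so calls were more frequent in the GC-rich miRNAs in both directions. Across the 200 matched miRNAs without repeat letters, the centred ratio and the GC content had Pearson's r = −0.25 and Spearman's rho = −0.30, a description over miRNAs that share 2 arrays. With the mean log2 signal the ratio had r = 0.015 and rho = −0.01 over the same 200. miR-2861 (290 and 226), miR-5126 (1914 and 1508), and miR-6538 (121 and 86.3) were among the GC-rich miRNAs with lower signals at 24 h. GC content and high numbers may overlap in this set and were not separated here.

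Detections gained at 24 h were weak. The 40 gained miRNAs had signals from 4.35 to 25.97 with a median of 9.52 and held 0.318% of the 24 h sum, 31 of them were detected by 1 probe, and 36 were detected on no other array. The highest were miR-3473d (25.97), miR-2183 (25.3), miR-3099-5p (22.8), miR-3063-3p (20.9), and miR-485-3p (17.8). The 24 h signal of miR-3473d was 3.03-fold its 12 h level. For that level the higher of the lowest detected signal and the summed signal of its undetected probes was taken. The error of the level was not counted, so the fold is not a lower bound. The 21 lost miRNAs had signals from 4.16 to 52.1 and held 0.224% of the 12 h sum, and 9 of them were also detected at 6 h. miR-466g was the brightest, at 52.1 by all 4 probes, and was 10.8-fold its 24 h level taken in the same way. It was followed by miR-669c-3p (28.4), miR-877-5p (25.1), miR-669h-3p (18.3), and miR-1931 (18.2). 3 of these 5 had repeat letters in a probe. With a detection limit of 5 times the error, 13 miRNAs were gained and 24 lost, so the excess of gains over losses turned around.

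The 6 miRNAs of the study's qRT-PCR experiment were weak on these arrays. miR-18a-5p was higher at 24 h as given above, miR-134-5p, a brain-enriched miRNA of the Dlk1-Dio3 locus, was 20.1 ± 2.27 and 4.90 ± 1.47, and miR-210-3p and miR-214-3p were within 2 scanner errors of equal. miR-134-5p went from 4 detected probes to 1, and its centred ratio of −2.44 was −0.64 over the common probe. miR-34b-3p (9.56) and miR-182-5p (8.83) were detected at 24 h by 1 probe and not at 12 h.

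Products of the same hairpin differed in part. For 24 hairpins both arms were detected on both arrays, and in 18 of them the centred ratios of the arms differed by more than 2 scanner errors. Over the probes detected on both arrays this number was 8, so 10 of the 18 rested on unequal probe sets, among them miR-574, miR-466i, and let-7b. The 8 were miR-21a, miR-125a, miR-195a, miR-211, miR-328, miR-487b, miR-652, and miR-1894. The arms lay on the same side of the median in 9 hairpins, or 13 over the common probes. In miR-21a the 5p arm was at 0.58 and the 3p arm at −0.49, a difference of 1.07 ± 0.26. In miR-125a the 5p arm was 123 and 213 and the 3p arm 94.3 and 83.9, and in miR-195a they were 228 and 355 against 26.6 and 9.69, the 3p arm with 2 probes and then 1 (centred −1.27 over the common probe). In each of these the 5p arm was higher at 24 h by more than 2 scanner errors without scaling. The 3p arms of miR-21a and miR-125a were within 2 errors of equal, with unscaled log2 ratios of −0.085 ± 0.20 and −0.17 ± 0.12. The unscaled ratio of miR-195a-3p over the common probe was −0.87. miR-328 had the higher ratio in its 3p arm, with the 5p arm at 51.6 and 37.6 and the 3p arm at 33.7 and 66.4. Arms that agreed within 2 errors included those of miR-140, miR-199a, and miR-30a.

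**Figure D4:**
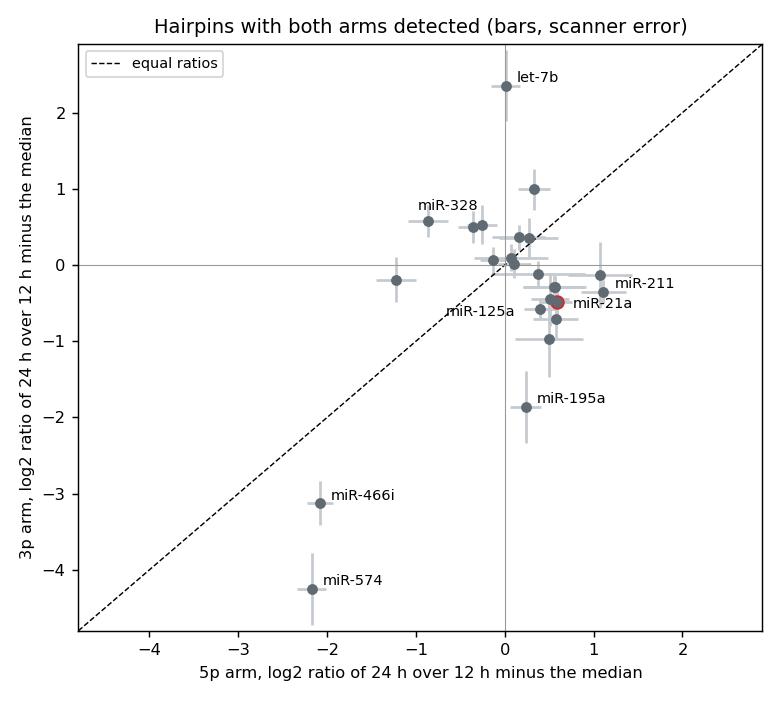
Centred log2 ratios of 24 h over 12 h of the 5p arm (horizontal) and the 3p arm (vertical) of 24 hairpins with both arms detected on both arrays, with bars of 1 scanner error and miR-21a in red. The dashed line marks equal ratios, from which 18 hairpins lay by more than 2 scanner errors with all detected probes and 8 with the probes detected on both arrays, and miR-574 and miR-466i stand apart at the lower left.

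Sets of miRNAs that share a seed or a cluster ranged from narrow to wide. The 5 members with the seed agcagca (miR-15a, miR-15b, miR-16, miR-195a, miR-322) had centred ratios from −0.00 to 0.52, the 4 with aaagugc (miR-20a, miR-20b, miR-93, miR-106b) from 0.06 to 0.43, and the 3 matched miR-30 members with guaaaca from −0.26 to −0.13. The 3 miRNAs of the miR-23a cluster on chromosome 8 (miR-23a-3p, miR-27a-3p, miR-24-3p) were at 0.11, 0.15, and 0.27. Other sets were wide. The miR-341, miR-1188, and miR-370 cluster on chromosome 12 ran from −1.56 to 1.26 with all detected probes. Over the probes detected on both arrays miR-341-3p was at 0.46, miR-1188-3p at 0.23, and miR-370-3p at −0.80. The cluster of miR-30c-1 and miR-30e on chromosome 4 ran from −1.004 to 0.53, the upper end being miR-30e-3p, at 0.22 over the common probe. The let-7 seed itself spanned 0.79. The cluster on chromosome 17 held both directions, with miR-99b-5p at 0.51, let-7e-5p at 0.80, and miR-125a-5p at 0.39, and miR-99b-3p at −0.45 and miR-125a-3p at −0.57. miR-99b-3p had 3 probes detected at 12 h and 2 at 24 h, and over the common probes it was at 0.04. Members with the same seed have similar probes, so their ratios are not independent.

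Probes of the same miRNA gave like ratios. Of 458 miRNA probes detected on both arrays, 177 miRNAs had at least 2, and the difference between the highest and lowest probe ratio had a median of 0.052 and a 90th percentile of 0.19 on the log2 scale. None of the 177 differed between probes by more than 2 scanner errors, and in 165 all probes lay on the same side of the median. This limit is wide and says little, as the error was 0.29 for miR-21a-5p, whose probes differed by 0.078. For miR-705 a difference of 0.62 had an error of 0.59. Probes detected on 1 array alone were not part of this. The likeness of probes holds within 2 arrays, and the variation between mice was not measured.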

How the data were processed

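Per the labels, Cy3-labelled kidney RNA of each group was read on 1 array. The authors deposited intensity values from Agilent Feature Extraction 10.7.1.1, corrected for background and spatial trend on each array without scaling between them, and a table of processed log2 values whose scale and centring are not given in the sources used here. No spot was saturated. For each of 1247 miRNAs the signals of its own probes (1 to 4) above 3 times their error were summed, since the software's total differed by over 1% from this sum for 81 of the 279 miRNAs detected at 12 h and 97 of the 298 at 24 h, and can hold signal of other rows. Scanner errors were added in squares. Log2 ratios of 24 h over 12 h were centred on their median, and 1.5-fold was counted. No test was possible with 1 array a group.

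Named miRNAs were the 5 highest signals, the 5 largest gains and losses, the 10 highest and 10 lowest ratios with an error of at most 0.25, the 5 brightest gained and lost, the 6 qRT-PCR miRNAs, and the lists. Other miRNAs were named after their values were seen. The comparison and the lists were chosen with earlier results of these data known. No fold against an array without detection was planned, and the folds given for miR-3473d and miR-466g were added. Mature sequences and positions came from RefSeq (GRCm38.p6), where 1017 of the 1247 names matched. Alternatives were other scalings (75th percentile, spike-ins, quantile), normexp with an offset of 50, software totals, mean processed signals, the processed table, 1 feature size, and other detection limits. Precision is limited by having 1 array a group. The software was R 4.3.3 with limma 3.58.1 for normexp and Python 3.11.15 with pandas 2.3.3, numpy 2.4.6, and matplotlib 3.10.9, and the computation was tested on simulated data. The qRT-PCR and histology measurements were not analysed here.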

Additional observations from a re-analysis of the deposited data

Results flagged for a closer look

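Of the control probes, which the comparison of miRNAs does not use, 7 were at least 2-fold above their sham signal on the 12 h or 24 h array, in 11 cases (4 at 12 h and 7 at 24 h). The higher of both arrays is given for each. The corner control probe was the farthest, with 958 at 12 h, 9.72-fold its sham signal. The spike-in dmr_6 was 2036 at 12 h, and dmr_285 and dmr_31a were 1570 and 1655 at 24 h. Of the other positive controls, hur_1, hur_4, and hur_6 were 27169, 5161, and 26121 at 24 h. The sham array was on another slide and scan with another feature size, so these cannot be told apart from the groups, and the part of the controls in the miRNA ratios was not tested.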

How the results depend on the processing

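No paired analysis was possible because neither time point had a second array. Restricting sums (and arm differences) to probes detected on both arrays, scaling by 9 positive controls, and leaving out the alternating-letter miRNAs were chosen after seeing the data. The log2 ratio of the totals, 0.14 as reported, changed direction to −0.39 after scaling by the 75th percentile, −0.041 in the processed table, and −0.19 with 9 controls. It was 6.86e-05 after quantile normalization, which equalizes totals by its construction, and 0.27 without the 10 highest miRNAs of the 12 h array. The median log2 ratio, 0.40 as reported, became −0.12 with the 75th percentile, 0.33 with the software's totals, 0.37 with spike-ins, 0.14 with quantile normalization, 0.23 with normexp, 0.14 in the processed table, 0.44 with detection at 2 errors, 0.079 with 9 controls, and 0.44 without the alternating-letter miRNAs. The 22 miRNAs above the median by 1.5-fold became 35 with the software's totals, 55 with quantile normalization, 57 in the processed table, 36 with detection at 2 errors, 85 uncentred, and 11 at 2-fold. The 52 below became 33 with normexp, 34 uncentred, and 34 at 2-fold. Higher calls were 29.7% of all calls centred and 71.4% uncentred. With detection at 5 errors, 13 miRNAs were gained. Of 112 named miRNAs with a ratio, 3 past 1.5-fold changed sign, each with the software's totals, to −3.76 for miR-100-5p, 0.41 for miR-466f-3p, and 1.49 for miR-466q. Of 26 named miRNAs past 1.5-fold, 7 fell short of it with normexp, 7 with the software's totals, and 1 over common probes. These counts leave out the scalings not centred on the median, where some also fell short. With the 75th percentile miR-760-3p, miR-342-3p, and miR-3099-3p were at 0.51, 0.48, and 0.48, and with spike-ins miR-3473b was at −0.27. Of the 112, 102 moved by at least their scanner error with spike-ins, 65 with quantile normalization, and 64 in the processed table. The cause was not tested except where a construction is named. Depth is limited by signals near 4.35, the lowest detected at 24 h.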
